A study of Mus musculus with 22 samples.

Results

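The transcription factors Nkx2-1, Sox2, Trp63, Foxa1, Foxa2, Grhl2, Elf3, Ehf and Isl1 were followed through RNA sequencing of the embryonic mouse trachea. They were chosen by name as regulators of the airway epithelium, with earlier results of these data known. All 9 were found among the 26202 gene symbols of the count table, as 19 of its 47248 entries. Whole tracheas at E11.5 were either Wnt5a f/f controls (n = 5) or Dermo1Cre; Wnt5a f/f mutants (n = 4), in which a recombinase active in the mesenchyme acts on the floxed Wnt5a gene. At E13.5 the tracheas carried a γSMA eGFP reporter of smooth muscle, and cells were sorted into epithelium (EpCAM positive, n = 2), muscle (eGFP positive, n = 2) and chondroblasts (negative for both, n = 2), with chondroblasts of Notum 150/150 mutants as a further group (n = 3). The sorted controls are given in the labels as Bmp4 f/f or Notum 300/300, and which genotype belongs to which control library is not known here. Each sorted sample pooled tracheas of a litter. Total counts ran from 6880660 to 20034349 in the E11.5 controls, from 16108973 to 18545581 in the E11.5 mutants and from 13513229 to 21678177 in the sorted cells. Levels are in CPM, and an error is an SD between libraries. Fold changes are on the log2 scale with their standard error (SE).

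The tracheal epithelium derives from the ventral foregut endoderm. The homeodomain factor Nkx2-1 marks that respiratory domain, Sox2 marks the proximal airway and the oesophagus, and the forkhead proteins Foxa1 and Foxa2 open chromatin for other factors throughout the endoderm. Grhl2 maintains genes of epithelial junctions, Elf3 and Ehf are ETS factors of differentiating epithelia, and Trp63 is the master regulator of basal cells. Isl1, a LIM homeodomain factor, is active in the foregut but also in cardiac progenitors, in motor and sympathetic neurons and in mesenchyme.

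Epithelial and smooth muscle genes separated the sorted populations, and a cartilage gene did so less. Epcam, the marker used in the sort, measured 522 and 891 CPM in the epithelial libraries, 2.02 and 4.47 CPM in muscle, and 0.658 and 0.224 CPM in chondroblasts, with the library of the earlier of the dates in the column names first. The summed level of 10 epithelial markers was 3822 and 4550 CPM in epithelium against 45.4 and 41.1 CPM in muscle and 39.0 and 27.3 CPM in chondroblasts. Acta2 of smooth muscle reached 7057 and 5117 CPM in muscle and stayed at 4.89 and 6.9 CPM in epithelium. Col2a1 of cartilage measured 1201 and 911 CPM in chondroblasts, 277 and 696 CPM in muscle, and 189 and 300 CPM in epithelium.

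The epithelial libraries stood apart from each other. Of 15331 genes, 474 differed over 10-fold between the epithelial libraries of the earlier and the later date, against 241 for muscle and 79 for chondroblasts. Thyroid and pharyngeal markers summed to 284 CPM in the earlier epithelium and to 28.3 CPM in the later. Hhex led in the earlier library, with 172 and 11 CPM, and Pax8 measured 78.1 and 2.08 CPM. Tg, the thyroglobulin gene of the same list, did not follow, with 12.8 and 15.2 CPM, and led in the later library. Of the 8 genes in that list, Gcm2 was at 0 in the earlier library, and Foxe1, Tshr, Pax9, Pax1 and Gcm2 were at 0 in the later. Csf1r of macrophages measured 91.3 CPM in the earlier epithelium and 0 in the later. Sftpc, a surfactant gene of the distal lung, measured 0 and 26.2 CPM. The earlier library is also the one whose column name marks neither sort colour as negative, and its reading as epithelium is not certain. With 1 library a date, the date, the dissection, the embryos and the sorted fraction cannot be told apart. The calls of the factors in epithelium are therefore also given without each of these libraries, and other genes and lists with both only.

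The targeted genes did not separate the mutant libraries from all of their controls. Wnt5a measured 159, 88.0, 62.1, 89.5 and 84.2 CPM in controls 7, 13, 16, 17 and 18, named by the numbers in their column names. It measured 126, 78.0, 46.3 and 87.7 CPM in the libraries labelled mutant 7, 13, 17 and 18. The means, 96.6 ± 36.7 CPM (n = 5) and 84.5 ± 32.9 CPM (n = 4), differed by less than the spread (log2 fold change -0.20, SE 0.30, adjusted p = 1.00). Notum measured 13.7 and 86.0 CPM in control chondroblasts and 33.4, 35.3 and 13.7 CPM in the libraries labelled Notum mutant A, B and C. These mutants all carry the later date and were all below the control of that date, and they overlapped with the controls only through the earlier one. The counts are summed over each gene, so transcripts that lack a deleted part are not distinguished. Directions given for either mutant rest on the labels.

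Most of the factors measured highest in epithelium. Foxa2 measured 193 and 170 CPM in epithelium, 1.72 and 0 CPM in muscle, and 0.0506 and 0.149 CPM in chondroblasts. Foxa1 measured 79.0 and 77.0 CPM in epithelium, 3.92 and 0 CPM in muscle, and 0 and 0.0747 CPM in chondroblasts. Grhl2 measured 80.9 and 112 CPM in epithelium, 2.79 and 0.0630 CPM in muscle, and 0.152 and 0.149 CPM in chondroblasts. For these 3 genes every epithelial library lay above every mesenchymal library, and the chondroblasts held at most 3 counts of any of them. A count of 0 in the later muscle library allows up to 0.189 CPM, which is 3 counts. Such limits cover counting error only, since the libraries carry no molecular identifiers.

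The lineage factors were also highest in epithelium, with larger differences between dates. Nkx2-1 measured 60.4 and 146 CPM in epithelium, 1.07 and 4.47 CPM in muscle, and 0.860 and 10.2 CPM in chondroblasts. Sox2 measured 30.9 and 47.3 CPM in epithelium, 1.54 and 0 CPM in muscle, and 0.303 and 0.0747 CPM in chondroblasts. Nkx2-1 was higher at the later date in all 3 populations, and at that date higher in chondroblasts than in muscle. Its epithelial ratio of later to earlier was 2.41, and that of Sox2 was 1.53. The Sox2 gene lies within the Sox2ot transcript on the same strand, and reads of the pair may be shared.

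The ETS factors were also highest in epithelium, with traces elsewhere. Elf3 measured 62.9 and 47.2 CPM in epithelium, 6.95 and 0.126 CPM in muscle, and 2.23 and 0 CPM in chondroblasts. Ehf measured 24.8 and 24.0 CPM in epithelium, 0 and 3.72 CPM in muscle, and 1.47 and 1.42 CPM in chondroblasts. The muscle libraries swapped places for this pair, with Elf3 higher in the earlier and Ehf higher in the later library.

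Among the sorted libraries, Trp63 was high in 1 only. It measured 71.9 CPM (1500 counts) in the earlier epithelium and 0.586 CPM (9 counts) in the later, a ratio of 123 with a 95% counting interval of 64.4 to 269. In muscle it measured 0.238 and 0 CPM, and in chondroblasts 0 and 0.0747 CPM. The other genes that separated the epithelial libraries in the same direction included the basal keratin Krt15, with 22 and 0 CPM, and Pax9, a factor of the pharyngeal endoderm, with 9.92 and 0 CPM. Krt5, a keratin of mature basal cells, was at 0.575 and 0 CPM, and Krt14 was at 0 in both. Whether the thyroid and pharyngeal transcripts of the earlier library bear on its Trp63 level was not tested. Of the 8 entries summed as Trp63, entries 6 and 8 held 645 and 630 of the counts in the earlier library. The entries carry no transcript name, so isoforms cannot be assigned.

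Isl1 was the exception to the epithelial restriction. It measured 109 and 112 CPM in epithelium, 30.8 and 50.1 CPM in muscle, and 56.9 and 54.7 CPM in chondroblasts. Epithelium was highest at both dates, but the mesenchymal populations held 30.8 CPM or more. The ratio of epithelium to muscle was 3.52 (95% counting interval 3.20 to 3.88) earlier and 2.24 (2.06 to 2.44) later. Against chondroblasts the ratios were 1.91 (1.78 to 2.05) and 2.05 (1.88 to 2.24).

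**Figure D1:**
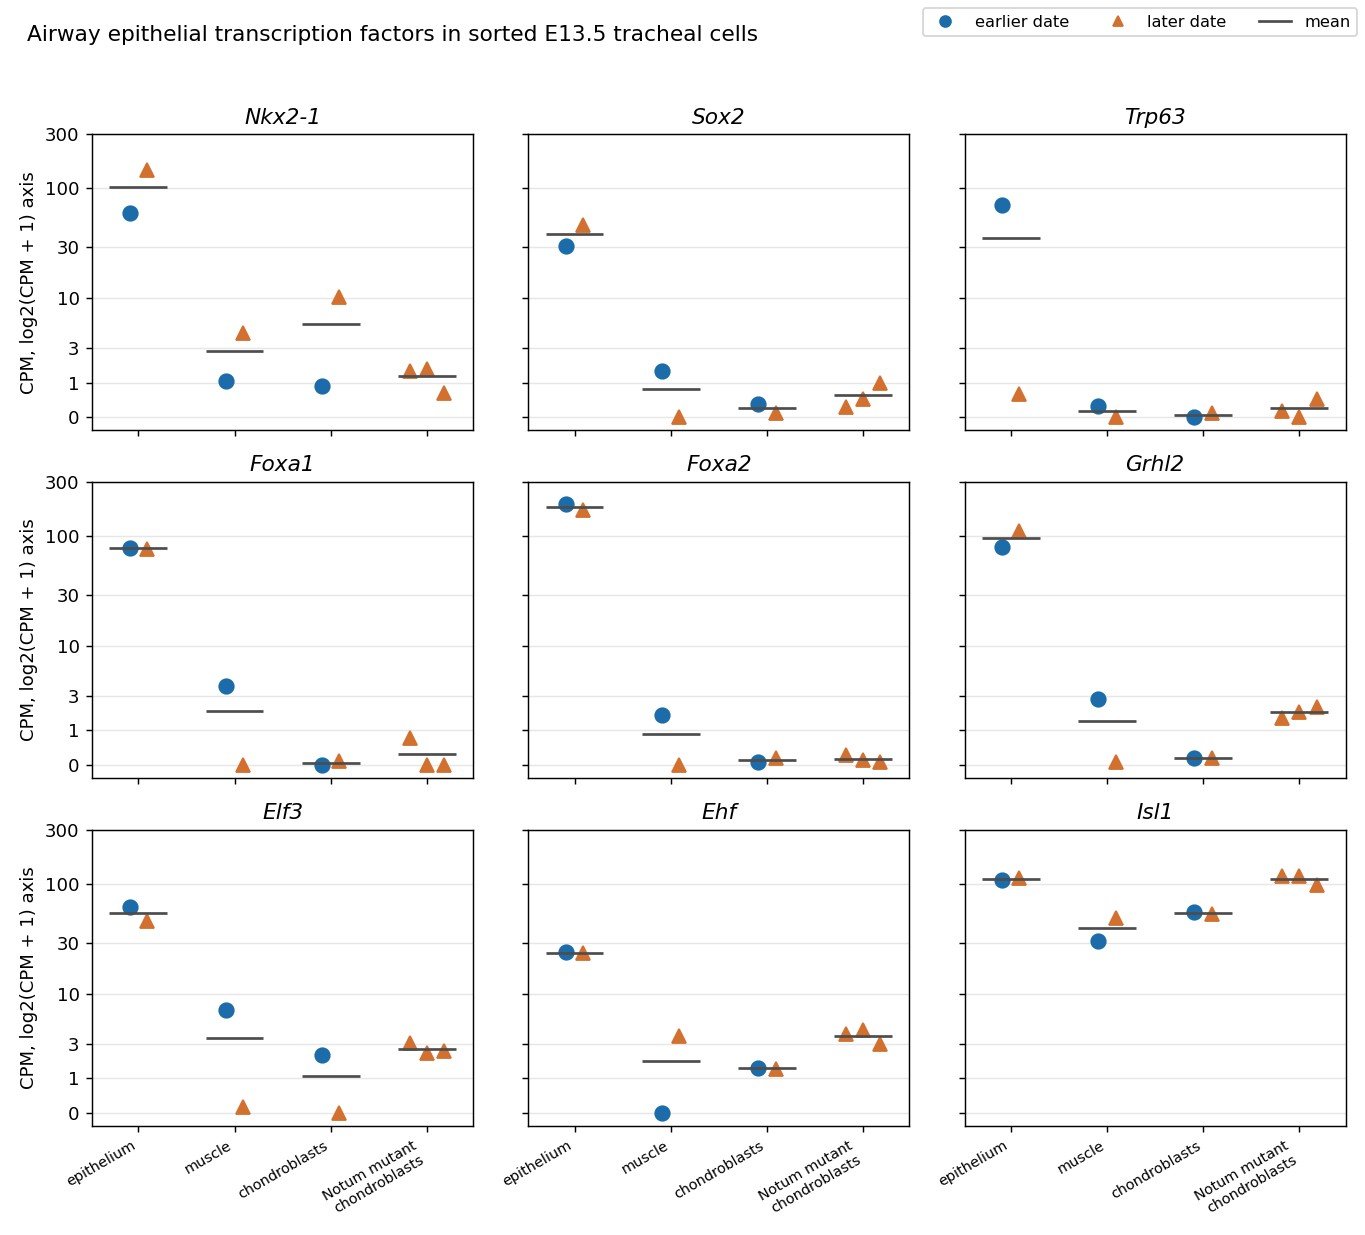
Level of each transcription factor in sorted E13.5 cells, in CPM on a log2(CPM + 1) axis, with 1 point per library, circles for the earlier and triangles for the later date, and a line at the mean. Foxa2 lies at 193 and 170 CPM in epithelium and below 2 CPM in every other sorted library, Trp63 is high in 1 epithelial library, and Isl1 is above 30 CPM throughout.

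Within each date, the ratios of epithelium to mesenchyme spanned a wide range. Foxa2 was 112-fold higher than in the earlier muscle (95% counting interval 77.7 to 167) and at least 900-fold higher than in the later, where muscle had no count and a limit of 3 counts was used. Against chondroblasts, which had 1 and 2 counts, its ratios were 3810 (683 to 150514) and 1139 (315 to 9411). The smallest ratio against muscle among the factors other than Isl1 and Trp63 was that of Ehf at the later date, 6.45 (4.89 to 8.64). At the earlier date the smallest was that of Elf3, 9.05 (7.48 to 11). The intervals are wide where the mesenchymal count is 1 to 3, and the order of the ratios there is not resolved.

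Low levels in the mesenchyme were compared with those of other epithelial genes. In the earlier muscle library, the factors other than Isl1 had a median of 2.61% of their level in epithelium of the same date, and the 10 epithelial markers 0.528%. In the later muscle library the medians were 0.0280% and 0.103%. In the earlier chondroblasts they were 0.586% and 0.121%, and in the later ones 0.145% and 0.0791%. The factors lay above the markers in 3 of these 4 libraries and below them in the later muscle. Fewer epithelial cells and less RNA per cell cannot be told apart in such bulk samples, and the part of carried-over epithelial cells in these levels was not tested.

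In a joint fit of the sorted populations with edgeR's quasi-likelihood test, few of the factors passed the Benjamini-Hochberg adjustment at 0.05. A gene had to reach 1 CPM in the majority of a population's libraries, which Trp63 did not, and 8 factors were tested. Foxa1, Foxa2, Grhl2, Sox2 and Elf3 passed this filter through epithelium only, where they were high. Their calls are therefore set beside the shares of all genes as a description and not as a test. Against muscle, only Foxa2 rose, with a log2 fold change of 7.70 (SE 1.31, adjusted p = 0.0329), where 1.17% of 13687 genes were called higher and 2.41% lower. Against chondroblasts, Foxa2 (log2 fold change 10.85, SE 1.59, adjusted p = 0.0246) and Grhl2 (9.27, SE 1.64, adjusted p = 0.0427) rose, beside 1.02% of genes higher and 1.72% lower. Against the mean of muscle and chondroblasts, Foxa1 joined them (8.15, SE 1.55, adjusted p = 0.0377), with 9.28 for Foxa2 and 7.67 for Grhl2 and with 2.40% of genes called higher. These contrasts share their libraries. The remaining factors had positive log2 fold changes that missed the threshold, among them Nkx2-1 with 4.73 (adjusted p = 0.0509), Isl1 with 1.23 (adjusted p = 0.0529) and Sox2 with 6.63 (adjusted p = 0.0540) against the mean. The biological coefficient of variation between libraries was 66.8%.

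This fit leaves out the date, which the 3 populations share, and a term for it changed the calls. With the date term, Nkx2-1 passed against muscle (5.51, adjusted p = 0.0315), against chondroblasts (4.90, adjusted p = 0.0456) and against their mean (5.21, adjusted p = 0.0132). Foxa2 kept its calls (adjusted p = 0.0441, 0.0383 and 0.0132). Grhl2 lost its call against chondroblasts (adjusted p = 0.0643) and kept that against the mean (adjusted p = 0.0287), and Foxa1 lost its call (adjusted p = 0.0571). Over all alternatives run, the log2 fold change of Grhl2 against chondroblasts lay between 9.03 and 9.58. That of Foxa1 against the mean lay between 7.62 and 12.2.

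These calls depended on single libraries. Without the earlier epithelium, Foxa2 kept its call against muscle (adjusted p = 0.0447) and chondroblasts (adjusted p = 0.0334). Without the later epithelium it lost both (adjusted p = 0.0725 and 0.0615), and Grhl2 lost its call against chondroblasts (adjusted p = 0.102). Against the mean, Foxa2 kept its call without the later epithelium (adjusted p = 0.0268), and Grhl2 (adjusted p = 0.0527) and Foxa1 (adjusted p = 0.0889) lost theirs. Without the earlier epithelium these 3 stayed called, and Nkx2-1 joined them (adjusted p = 0.0449). Without either chondroblast library no factor was called in any of the 3 contrasts. The directions held for all 8 factors under every alternative run. A lone remaining library is assumed in these fits to vary like the other groups.

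Other gene groups of the epithelium gave a setting for these counts. All 10 epithelial markers rose against muscle, with a median log2 fold change of 8.14, where the 8 tested factors had a median of 5.27 and all genes -0.03. With genes at 0 in a whole group set to their bound, the marker median was 8.03. Of 9 tested regulators of the epithelial state, such as Klf5 and Ovol2, 3 rose against the mesenchymal mean and 0 fell, where 2.40% of all genes were called higher and 2.75% lower. Klf5, a zinc finger factor of airway epithelium, had a log2 fold change of 4.91 (SE 0.92, adjusted p = 0.0358) there. Grhl1, a relative of Grhl2, had 5.34 (adjusted p = 0.0650), and Grhl3 had 1.03 (adjusted p = 0.803), with 53.3 CPM in the earlier muscle library against 19.7 CPM in the earlier epithelium. Of 13 tested foregut and lung regulators, 4 rose and 1 fell, the latter being the forkhead repressor Foxp2 (-1.60, SE 0.18, adjusted p = 0.00696).

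Signals and differentiation genes of the airway were also read in the same contrast with the mesenchymal mean. Of all genes, 2.40% were called higher and 2.75% lower there. Wnt7b, an epithelial Wnt ligand, measured 222 and 508 CPM in epithelium and rose with a log2 fold change of 9.48 (SE 0.72, adjusted p = 0.00282). Shh, the hedgehog ligand of the endoderm, measured 8.14 and 21.8 CPM and rose by 8.17 (SE 1.59, adjusted p = 0.0398). Of 15 tested signals and targets, 2 rose and 1 fell. Among 7 tested airway differentiation genes, 2 rose, namely Ccno of multiciliated cells (11.88, SE 0.97, adjusted p = 0.00500) and the secretory gene Scgb3a2 (8.88, SE 1.33, adjusted p = 0.0182). Foxj1, Scgb1a1 and Foxi1 were at 0 in both epithelial libraries. Of 13 tested mesenchymal transcription factors, 6 fell and 0 rose, including Zeb2, a repressor of epithelial genes (-3.97, SE 0.52, adjusted p = 0.0120), and Prrx1 (-3.07, SE 0.42, adjusted p = 0.0130).

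Between the epithelial libraries the factors fell into 3 kinds. Foxa1, Ehf and Isl1 had ratios of earlier to later level of 1.03 (0.952 to 1.11), 1.03 (0.902 to 1.18) and 0.968 (0.909 to 1.03), and their 95% counting intervals include equality. Foxa2 and Elf3 were higher in the earlier library, with ratios of 1.13 (1.08 to 1.19) and 1.33 (1.22 to 1.46). Nkx2-1, Sox2 and Grhl2 were lower in it, with 0.415 (0.387 to 0.445), 0.652 (0.585 to 0.726) and 0.719 (0.672 to 0.770). Trp63 exceeded all of these. The intervals cover counting and not the variation between embryos, which 1 library a date cannot give.

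**Figure D2:**
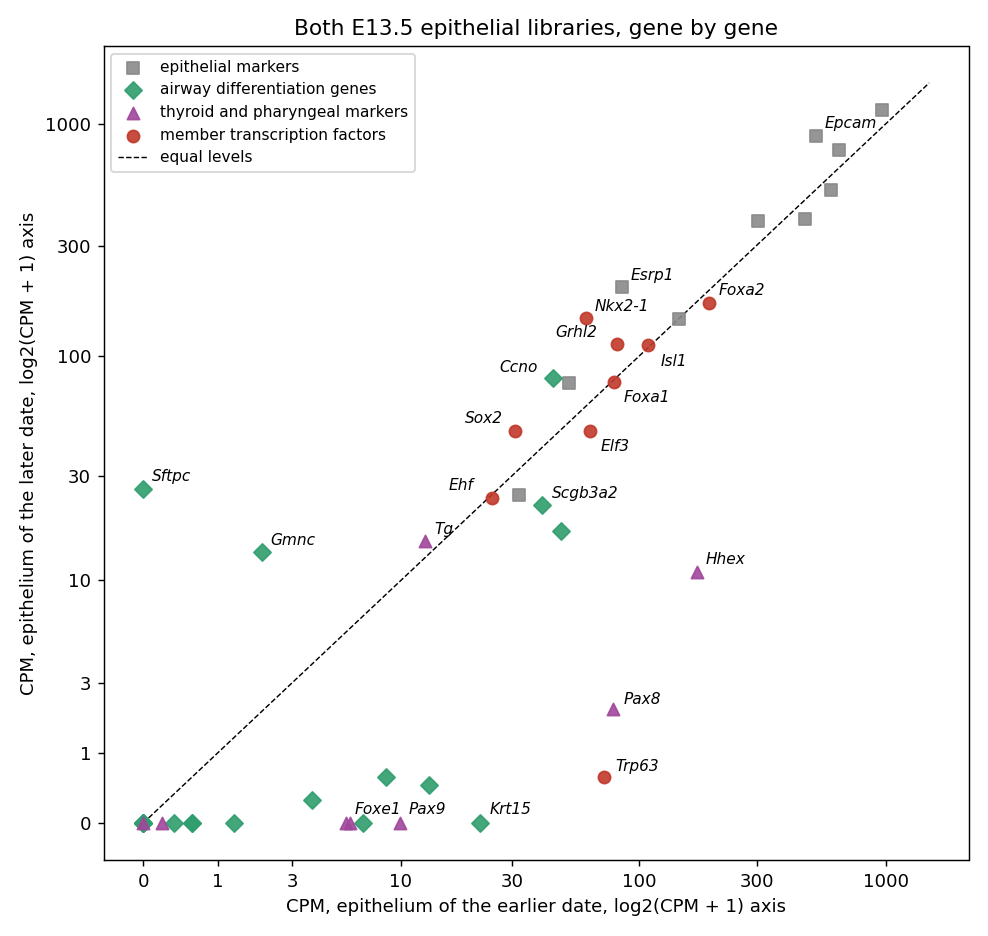
Level of each gene in the epithelial library of the earlier date (horizontal) and of the later date (vertical), in CPM on log2(CPM + 1) axes, for the transcription factors and 3 gene lists, with a dashed line at equal levels. Trp63, at 71.9 and 0.586 CPM, lies with Pax8 and Hhex below the line, whereas Foxa1, Ehf and Isl1 lie on it.

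Per kilobase of annotated exon, the epithelial level was highest for Foxa2, with 76.5 ± 6.72 CPM per kb (n = 2). Nkx2-1 followed with 36.3 ± 21.2, Isl1 with 27.9 ± 0.639, Elf3 with 24.8 ± 5.00, Foxa1 with 23.5 ± 0.427 and Sox2 with 19.0 ± 5.67 CPM per kb. Grhl2 with 11.2 ± 2.59, Ehf with 4.37 ± 0.102 and Trp63 with 4.32 ± 6.01 CPM per kb were lowest. The spread of Nkx2-1 covers the means of Isl1, Elf3, Foxa1 and Sox2, and that of Trp63 covers the mean of Ehf. Chondroblasts held 14.1 ± 0.398 CPM per kb of Isl1, above Grhl2 in epithelium.

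The genomic positions follow GENCODE M21 on GRCm38. Foxa1 lies at chr12:57540628-57546916 and Nkx2-1 on the same chromosome at chr12:56531958-56536908, both on the minus strand. Foxa2 lies at chr2:148042877-148046969 and Ehf at chr2:103263433-103303278, both on the minus strand. Elf3 lies at chr1:135253575-135258568 and Isl1 at chr13:116298281-116309689, both on the minus strand. Sox2 at chr3:34650405-34652461, Trp63 at chr16:25683763-25892102 and Grhl2 at chr15:37233036-37363569 lie on the plus strand. The antisense gene Gm16136 overlaps Grhl2 and is also in the count table, and the library kit does not mark strand.

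Promoters were read because Foxa1, Foxa2, Sox2, Grhl2 and Elf3 varied together over the libraries, and because some of the factors bind known core letters. RefSeq promoters on GRCm38.p6 were matched for 6 of 9 factors and searched on both strands over the 250 bases before the start. The forkhead core GTAAACA was in 3.16% of 32817 promoters, and among the factors in that of Foxa1. The NKX2 core CAAGTG was in 11.6%, and among the factors in that of Elf3, and the grainyhead core AACCGGTT was in 0.116% and in none of the 6. The stretch of each promoter outside annotated exons is shown 5′ to 3′ with the core in capitals, at chr12:57546122-57546361 (minus strand), within an intron of a longer Foxa1 transcript, and at chr1:135258569-135258722 (minus strand), just before Elf3. A match of these letters is a description and says nothing of binding.
Foxa1: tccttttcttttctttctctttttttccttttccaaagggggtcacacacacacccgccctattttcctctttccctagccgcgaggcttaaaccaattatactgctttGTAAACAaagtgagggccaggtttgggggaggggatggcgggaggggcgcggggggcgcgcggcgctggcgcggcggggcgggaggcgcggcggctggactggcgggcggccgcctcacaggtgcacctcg
Elf3: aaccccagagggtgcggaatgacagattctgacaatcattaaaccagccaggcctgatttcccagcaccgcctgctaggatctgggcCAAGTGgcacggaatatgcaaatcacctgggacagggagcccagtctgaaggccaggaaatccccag

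Genes with the most similar pattern over all 18 libraries were sought by Pearson's r of log2(CPM + 1). Foxa2 was closest to Grb7 (r = 0.986), Cldn7 (0.985) and Cldn3 (0.985), and Elf3 to Map7 (0.986), Fbln7 (0.968) and Mpzl2 (0.952). Sox2 was closest to Gipc2 (0.970), Prr15l (0.967) and 2610528J11Rik (0.966), Foxa1 to Mal2 (0.968), Capsl (0.966) and Prr15l (0.963), and Grhl2 to Muc1 (0.972), Map7 (0.964) and Sox2 (0.961). Trp63 was closest to Prom2 (0.957), Trim29 (0.943) and Krt15 (0.934), and Nkx2-1 to Gsr (0.940), Dennd11 (0.931) and Prkci (0.924). The lists are shared in part for Sox2, Foxa1, Grhl2 and Elf3. Ehf reached 0.905 with Sorbs2 and 0.905 with Wipi1, and Isl1 only 0.771 with Rbm27, 0.770 with Grsf1 and 0.768 with Srrm1. The libraries fall into sorted and whole tissue, so these coefficients describe that contrast as well.

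The E13.5 epithelium was next set against whole control tracheas at E11.5, where epithelium is a minor tissue among mesenchyme. Foxa2 measured 22.1, 30.5, 9.02, 16.8 and 12.2 CPM in controls 7, 13, 16, 17 and 18, Sox2 measured 2.86, 2.49, 2.33, 2.55 and 2.61 CPM, and Grhl2 measured 10.4, 10.2, 4.51, 6.62 and 8.52 CPM. Nkx2-1 ranged from 1.09 to 14.1 CPM, Foxa1 from 2.69 to 7.52 CPM, Elf3 from 2.80 to 6.72 CPM and Ehf from 0.0579 to 2.49 CPM. Each of these 7 was lower in every E11.5 control than in either epithelial library. Trp63 ranged from 1.33 to 10.9 CPM, between the epithelial libraries. Isl1 measured 145 CPM in control 7 and from 47.0 to 65.0 CPM in the others, so that control 7 lay above both epithelial libraries.

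In that comparison 7 of 9 factors were called higher in E13.5 epithelium, beside 7.65% of 14628 genes, with 9.41% called lower. Of these factors, Ehf passed the filter through epithelium only. The log2 fold changes were 5.28 for Ehf (SE 1.04, adjusted p = 0.0120), 4.15 for Nkx2-1 (SE 0.73, adjusted p = 0.00790) and 3.92 for Sox2 (SE 0.31, adjusted p = 3.67e-04). They were 3.81 for Foxa1, 3.57 for Grhl2, 3.50 for Elf3 and 3.32 for Foxa2. All 10 epithelial markers rose as well, with a median of 3.61 against 3.57 for the factors and -0.12 for all genes. The 7 calls held under every alternative run, and the estimate for Ehf was 6.54 without control 16. That for Nkx2-1 was 3.36 without the later epithelium and 4.8 without control 7. Trp63 had 3.08 (adjusted p = 0.122), which became -2.87 (adjusted p = 0.109) without the earlier epithelium and 4.04 (adjusted p = 0.0117) without the later, and 3.80 without control 7. Isl1 had 0.58 (adjusted p = 0.361), and 0.97 (adjusted p = 0.0148) without control 7. Stage, sorting, genotype and any batch effect cannot be told apart in this comparison.

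Relative to the epithelial markers, Foxa2, Grhl2 and Elf3 differed little between the libraries of these stages. As a percentage of the summed CPM of the 10 markers, Foxa2 was 4.39 ± 0.920% in E13.5 epithelium (n = 2) and 4.61 ± 1.42% in E11.5 controls (n = 5). Grhl2 was 2.29 ± 0.251% and 2.12 ± 0.525%, Elf3 1.34 ± 0.430% and 1.27 ± 0.284%, and Foxa1 1.88 ± 0.265% and 1.48 ± 0.455%. The means of Foxa2, Grhl2 and Elf3 differed by less than either SD, and those of Foxa1 by less than the E11.5 SD only. With n = 2 in epithelium, a difference between the stages is not excluded. Sox2 was 0.924 ± 0.165% and 0.694 ± 0.106%, and Ehf 0.587 ± 0.0857% and 0.216 ± 0.329%. The E11.5 value of Ehf rests on control 16, the shallowest library, with 0.801%, where the other controls had 0.0125% to 0.117%. Nkx2-1, at 2.39 ± 1.15% and 1.45 ± 1.22%, and Trp63, at 0.946 ± 1.32% and 1.15 ± 0.924%, varied too widely to compare. Isl1 was 2.65 ± 0.265% in E13.5 epithelium and 19.8 ± 9.62% in the whole tracheas, whose mesenchyme can hold it too, so this percentage does not compare the stages.

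The question of the E11.5 mutants was how loss of mesenchymal Wnt5a, a ligand of noncanonical Wnt signalling, alters the trachea. Sox2 measured 2.86, 2.49, 2.33, 2.55 and 2.61 CPM in controls 7, 13, 16, 17 and 18 and 3.69, 4.25, 6.25 and 3.70 CPM in the libraries labelled mutant 7, 13, 17 and 18. Every library labelled mutant lay above every control for Sox2, the only one of 8 tested factors of which this was true, as for 0.696% of 14663 genes. Elf3 measured 6.72, 5.21, 2.80, 4.76 and 4.58 CPM in the controls and 8.38, 10.6, 10 and 5.81 CPM in the libraries labelled mutant. For Elf3, mutant 18 lay below control 7.

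The study called genes with DESeq2 at a p-value under 0.05 and a fold over 1.5, beside a filter on FPKM. That p-value is read here as unadjusted. At that p and fold, here applied in edgeR with the CPM filter and named the study's thresholds below, 2 factors were higher in the libraries labelled mutant, beside 1.19% of genes higher and 3.72% in either direction. Sox2 had a log2 fold change of 0.79 (SE 0.28) and Elf3 of 0.84 (SE 0.28). After adjustment over all genes neither passed (adjusted p = 1.00 for both in edgeR), and 2 genes in all did, 0.0136% of those tested. The count of genes was 40 with DESeq2, 672 genes had an unadjusted p under 0.05, and none of the 8 factors passed the adjustment under any alternative run. Without mutant 17, the Sox2 estimate was 0.59 and no longer met the study's thresholds. Without control 7, 4 factors and 935 genes met them, and without mutant 18, 4 factors and 591 genes.

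The other factors overlapped between genotypes when all libraries are compared. Isl1 measured 145, 47.0, 57.9, 54.9 and 65.0 CPM in the controls and 168, 91.8, 120 and 78.2 CPM in the libraries labelled mutant (log2 fold change 0.63, SE 0.34, adjusted p = 1.00). Trp63 measured 10.9, 1.33, 4.04, 2.14 and 2.98 CPM in the controls and 10.7, 10.1, 14.9 and 1.25 CPM in the mutants (1.10, SE 0.68, adjusted p = 1.00). Only mutant 18 was low in Trp63 among the mutants, and only control 7 was high among the controls. Grhl2 had a log2 fold change of 0.40, Foxa1 of 0.30, Foxa2 of 0.27 and Nkx2-1 of -0.04. The signs of the last 3 turned under some alternatives. Ehf, at 0.0543 to 0.422 CPM in the mutants, did not pass the filter.

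Blocking by the numbers in the column names, which leaves control 16 without a partner, gave 3 factors among 413 genes at the study's thresholds, and 1 gene past the adjustment. Sox2 then had 0.73, Elf3 0.69 and Isl1 0.64 on the log2 scale, and the adjusted p of Isl1 in edgeR was 0.773. Within the libraries that share a number, Sox2, Grhl2, Elf3 and Isl1 were higher in the mutant in 4 of 4 pairs, as were 6.57% of all genes tested. Trp63, Foxa1 and Foxa2 were higher in 2 of the 4 pairs and Nkx2-1 in 1.

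Epithelial markers were read beside these factors. Their summed CPM was 410, 463, 311, 386 and 317 in the controls and 486, 455, 830 and 351 in the libraries labelled mutant, with Krt8 or Cldn6 the most abundant and none of the 10 at 0 in any of them. All 10 had positive log2 fold changes and 4 met the study's thresholds, with a median of 0.54 against 0.51 for the 8 factors and -0.02 for all genes. Mutant 17 was highest in the marker sum and in Sox2, Foxa1, Foxa2 and Trp63, but lowest of the mutants in Grhl2, with 6.95 CPM against 10.9 to 14.0 CPM. As a percentage of the marker sum, Grhl2 was 0.837% in mutant 17 and from 2.40% to 3.12% in the other mutants, and Nkx2-1 there was 2.72 CPM. With the log2 of the marker sum as a covariate no factor met the study's thresholds, and Sox2 had 0.54 and Elf3 0.56. As a percentage of the marker sum, Sox2 was 0.694 ± 0.106% in controls (n = 5) and 0.875 ± 0.147% in the libraries labelled mutant (n = 4). Elf3 was 1.27 ± 0.284% and 1.73 ± 0.458%.

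Thyroid and pharyngeal markers were high in the mutants that were high in Trp63, but not in control 7, which was the highest control for Trp63. They summed to 12.9, 16.8, 16.6, 20.1 and 17.9 CPM in the controls and to 39.2, 62.6, 46.7 and 18.7 CPM in mutants 7, 13, 17 and 18. Of 4 tested genes of the list, 2 met the study's thresholds as higher and 1 as lower. Hhex led in the mutants with 21.5, 42.7, 28.7 and 8.89 CPM. Tg was the lower one, with 0.464 to 4.04 CPM in the controls and 0.527 to 0.912 CPM in the mutants, and Tshr overlapped, with 2.21 to 8.92 CPM and 3.80 to 8.55 CPM. Pax9 measured 8.49, 10.6 and 12.4 CPM in mutants 7, 13 and 17 and 0.171 CPM in mutant 18, against 0.602 to 4.34 CPM in the controls. Krt15 was also lowest in mutant 18, with 0.228 CPM against 3.74, 5.89 and 12.9 CPM in the others. So was Krt5, with 0.0570 CPM against 0.632, 1.31 and 2.06 CPM. Krt14 did not follow, with 0.580, 5.84, 6.03 and 1.03 CPM in mutants 7, 13, 17 and 18 and 2.16 to 25.7 CPM in the controls. Mutant 18 thus lacked the levels that the other mutants showed for Trp63, Pax9 and Krt15. Pax1 was at 0 in mutant 13, and Pax8 and Foxe1 were at 0 in mutant 18. The part of pharyngeal tissue in the Trp63 levels was not tested.

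**Figure D3:**
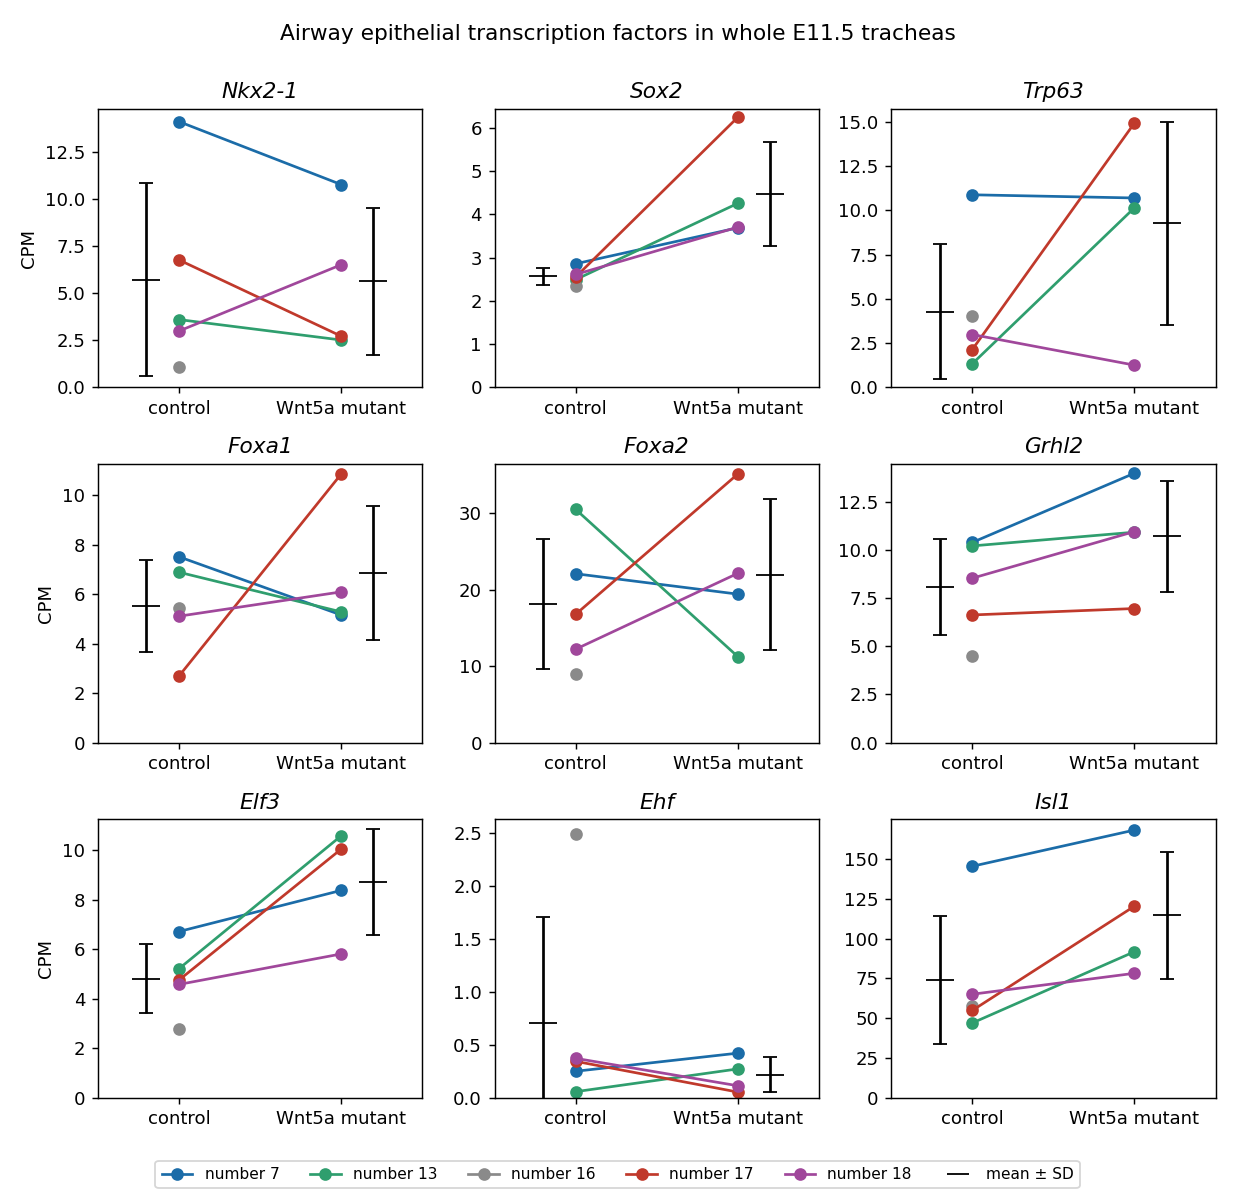
Level of each transcription factor in whole E11.5 tracheas, in CPM, with 1 point per library, lines joining control and mutant libraries of the same column number, and black marks for mean ± SD (n = 5 and n = 4), cut at 0 for Ehf. The mutant points for Sox2, from 3.69 to 6.25 CPM, lie above the controls, from 2.33 to 2.86 CPM, and the other factors overlap.

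Of the other lists in this comparison, 1 of 14 tested foregut and lung regulators met the study's thresholds as higher, and 0 of 9 regulators of the epithelial state did. Hhex, in the foregut and the thyroid lists, had 1.97 (SE 0.44, adjusted p = 0.528). Wnt2, a mesenchymal ligand that acts upstream of Nkx2-1 in the early foregut, had -1.29 (SE 0.36, adjusted p = 0.972), and Wnt7b had -0.13 (SE 0.34, adjusted p = 1.00). Neither direction was past the adjustment. Neural and glial markers summed to 76.8 to 290 CPM in controls and 69.2 to 587 CPM in the libraries labelled mutant, with mutant 17 highest. Heart markers summed to 54.7 to 487 CPM in controls and 150 to 365 CPM in the mutants. Control 7 was lowest in both sums among the controls and highest in Isl1. Nkx2-5, the cardiac progenitor gene of the heart list, went the other way, with 7.82 CPM in control 7 against at most 0.896 CPM in the other controls, and with 9.49 CPM in mutant 7, the library highest in Isl1.

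The last comparison set chondroblasts of Notum mutants, which lack a secreted enzyme that inactivates Wnt ligands, against control chondroblasts. Isl1 measured 56.9 and 54.7 CPM in the controls and 118, 118 and 98.4 CPM in the libraries labelled mutant A, B and C. The columns of B and C carry the same number in their names, so they may not be independent. The mutant mean of 112 ± 11.4 CPM (n = 3) was about that of control epithelium, 110 ± 2.53 CPM (n = 2), while Epcam stayed at 0.819, 0.924 and 0.439 CPM. Grhl2 measured 0.152 and 0.149 CPM in the controls and 1.55, 1.90 and 2.19 CPM in the mutants. Ehf measured 1.47 and 1.42 CPM in the controls and 3.87, 4.33 and 2.97 CPM in the mutants. For these 3 factors and for Elf3 every library labelled mutant lay above both controls, 4 of 5 tested factors, as for 16.6% of 14120 genes. The filter bears on this count, since Grhl2, Elf3 and Nkx2-1 passed it through the mutants only. Elf3 and Nkx2-1 each lay under 1 CPM in 1 control, and Grhl2 in both. The 4 untested factors did not lie above the controls, so that over all factors the count is 4 of 9.

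At the study's thresholds Isl1 and Grhl2 were higher in the libraries labelled Notum mutant, beside 5.51% of genes higher and 8.41% in either direction. Isl1 had a log2 fold change of 1.02 (SE 0.14, adjusted p = 0.135) and Grhl2 of 3.61 (SE 0.87, adjusted p = 0.260). No gene passed the adjustment in edgeR, that is 0% of those tested, where 1762 genes had an unadjusted p under 0.05 and DESeq2 called 526 genes and 2 of the factors. Of the genes at the study's thresholds 65.5% were higher, and 77.0% with library sizes in place of TMM factors. Ehf had 1.39 (SE 0.60, adjusted p = 0.409). Sox2, Trp63, Foxa1 and Foxa2 did not pass the filter, with at most 0.974 CPM in any mutant. Without B or without C, Isl1 and Grhl2 still met the study's thresholds, with 0.98 and 1.10 for Isl1 and 3.60 and 3.48 for Grhl2.

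All libraries labelled Notum mutant carry the later date, and the controls carry 1 of each. For Isl1 the ratio to the earlier control was 1.96 (95% counting interval 1.84 to 2.09) and to the later control 2.04 (1.89 to 2.21). For Ehf the ratios were 2.54 (1.72 to 3.88) and 2.63 (1.64 to 4.44), and for Grhl2 12.3 (4.12 to 60.7) and 12.5 (3.39 to 105), resting on 3 and 2 control counts. These 3 were as large within the later date as across dates. Elf3 measured 2.23 and 0 CPM in the controls and 3.05, 2.33 and 2.44 CPM in the mutants, and its ratio was 1.18 (0.839 to 1.68) to the earlier control and at least 11.7 to the later. Nkx2-1 measured 0.860 and 10.2 CPM in the controls and 1.55, 1.61 and 0.633 CPM in the mutants, with a ratio of 1.48 (0.867 to 2.66) to the earlier control and 0.124 (0.0929 to 0.165) to the later. Its log2 fold change of -2.11 (SE 1.05, adjusted p = 0.460) became 0.56 without the later control. Without the earlier control 2540 genes and 3 factors passed the adjustment, namely Isl1 (1.04, adjusted p = 0.0146), Elf3 and Nkx2-1.

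Markers of other cell types were read beside these values. The 10 epithelial markers summed to 39.0 and 27.3 CPM in control chondroblasts and to 25.6, 16.2 and 29.3 CPM in the mutants, mostly Krt18 and Krt8. Cldn4 and Rab25 were at 0 in both controls and in mutant A, and Rab25 also in mutant C. Mutants B and C held 1 count of Cldn4 each, and mutant B held 4 of Rab25. Cdh1 was at 0 in mutant A. Cdh1 was at 5.36 CPM in mutant C against 0.152 and 0.523 CPM in the controls. Esrp1 lay above the controls, at 0.0506 and 0.0747 CPM, in all mutants, at 0.228, 0.195 and 0.0974 CPM. These levels are 1 count in each control and 5, 4 and 2 counts in the mutants. Krt8 went the other way, with 6.22 and 10.6 CPM in the controls and 3.55, 2.92 and 4.92 CPM in the mutants. Cldn6 was also lower in every mutant than in both controls. As a share of the level in later epithelium, the median of the factors other than Isl1 was 1.22%, 1.01% and 2.00% in mutants A, B and C, and that of the markers 0.0936%, 0.109% and 0.159%. None of 3 tested epithelial markers had a positive log2 fold change, with a median of -0.71. The medians were 1.23 for the 5 tested factors and 0.02 for all genes, and which factors and markers were tested depends on the filter, so the medians of these small sets are not compared. The marker sums overlapped between the groups, while Grhl2 and Ehf did not. Whether epithelial cells contributed to these levels was not tested.

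Neural and glial markers, whose cells can hold Isl1, summed to 219 and 335 CPM in control chondroblasts and to 322, 393 and 294 CPM in the mutants. Tubb3 led with 87.2 and 99.7 CPM in controls and 113, 135 and 89.9 CPM in mutants, apart from the later control, where Stmn2 led with 110 CPM. Prph and Foxd3 were at 0 in the later control, and none of the 14 genes was at 0 in the mutants. Heart markers summed to 11 and 6.20 CPM in controls and to 104, 24.2 and 25.6 CPM in mutants, with Nkx2-5 at 0 in both controls and in mutant C. Thyroid and pharyngeal markers summed to 6.58 and 0.971 CPM in controls and to 8.88, 17.3 and 16.9 CPM in mutants, led by Tg or Hhex. Smooth muscle markers summed to 72.4 and 73.2 CPM against 114, 80.4 and 114 CPM, and cartilage markers to 2380 and 2167 CPM against 3147, 3532 and 2743 CPM. Endothelial and blood markers, mostly Hba-a1, summed to 34494 and 4744 CPM in controls and to 4870, 3809 and 5353 CPM in mutants, so that the earlier control stood far apart. Csf1r of macrophages, in the same list, measured 82.9 and 36.1 CPM in controls and 124, 115 and 161 CPM in mutants. Among these lists, the neural sums and those of endothelium and blood overlapped. Their part in the Isl1 level was not tested.

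Around the factors, 3 of 12 tested signals and targets met the study's thresholds as higher and 5 as lower in the Notum comparison, where 778 of all 14120 genes did so as higher and 410 as lower. Axin2, a target of Wnt/β-catenin signalling, measured 3.49 and 4.26 CPM in controls and 9.92, 10.4 and 7.89 CPM in mutants, with a log2 fold change of 1.30 (SE 0.40, adjusted p = 0.317), and Bmp4 had one of 0.98 (SE 0.18, adjusted p = 0.205). Wnt2 had -0.92 (SE 0.29, adjusted p = 0.325). None of these passed the adjustment.

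**Figure D4:**
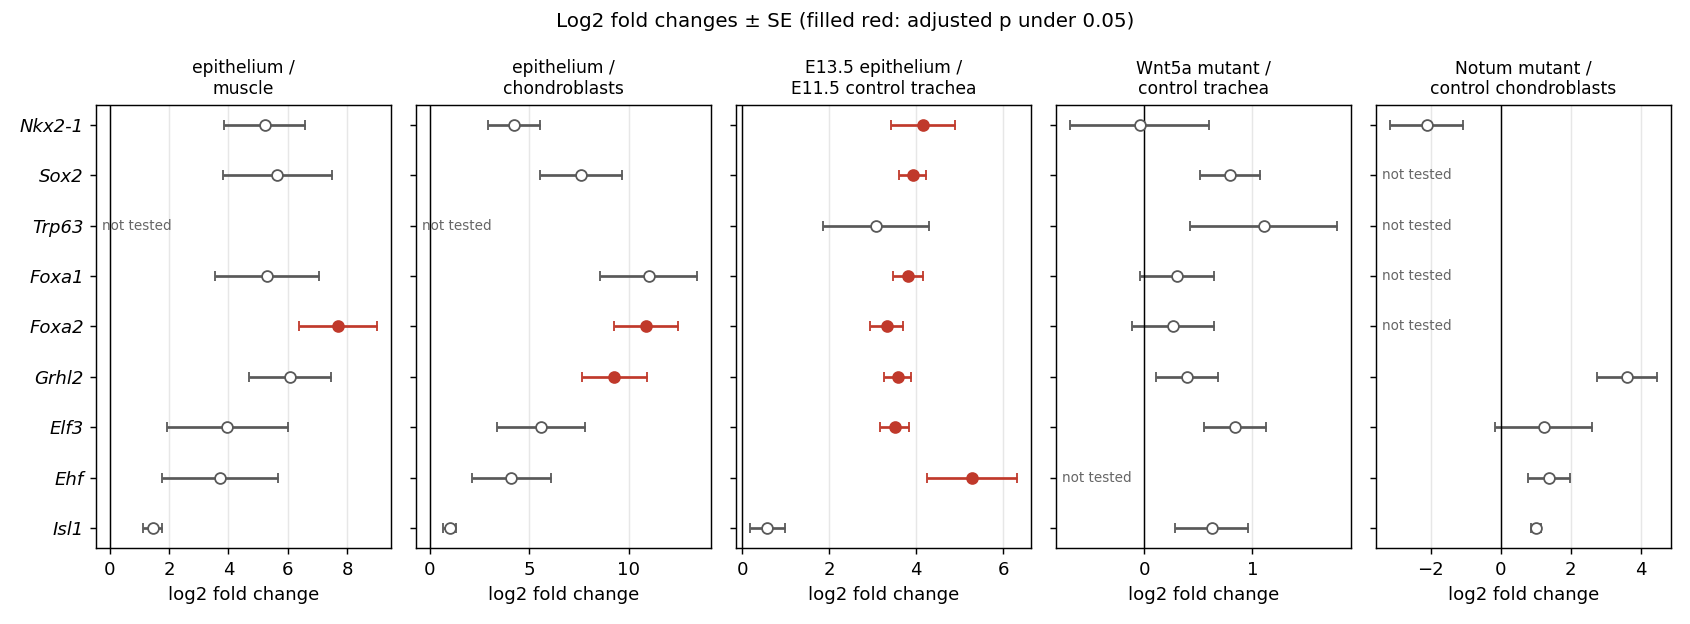
Log2 fold change of each transcription factor in 5 comparisons, with bars for the standard error, filled red points for an adjusted p under 0.05 and open points otherwise. Filled points stand for 1 factor against muscle, 2 against chondroblasts and 7 against E11.5 control trachea, and none in either mutant.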

How the data were processed

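The authors deposited expected counts, estimated per entry with replicates kept apart and not normalized, of which 56.0% are fractional. The submitters' processing notes name Partek, limma and mm10, and the study's methods DESeq2. Libraries were made with SMART-Seq v4 and Nextera XT kits. Of 22 columns of values, 18 were assigned by their names and 4 were not used. The labels list 3, 3, 3 and 4 sorted samples where 2, 2, 2 and 3 columns were found. A sorted column whose name marks neither APC nor GFP as negative was read as epithelium, which is not certain, and is the earlier epithelial library. Entries were summed per symbol and rounded, and CPM scaled by TMM over 18 libraries. Genes reaching 1 CPM in the majority of any compared group were tested with edgeR 4.0.16 (quasi-likelihood, 2-sided, R 4.3.3) and Benjamini-Hochberg adjustment over all genes tested, after the fits were tested on simulated data. The standard error is the log2 fold change divided by the square root of F. DESeq2 1.42.0, other scalings, no filter, all libraries in 1 fit, a date term and leaving out each library were alternatives. Counting intervals are exact at 95%, and the limit for a count of 0 is 3 counts. The methods pool sorted tracheas per litter, but the litter of each column is not given, so p-values measure the spread between these libraries.

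Named genes are the 9 factors, Wnt5a, Notum, Epcam, the 3 most abundant genes of each list and those past the adjustment, and the 3 genes most like each factor (2 for Ehf). Other named genes were picked from the lists after their values were seen. The members and lists were chosen with earlier results of these data known. Deviations from the group means on the log2(CPM + 1) scale correlated between E11.5 libraries of the same column number (r = 0.619 for 7, 0.208 for 13, 0.127 for 17 and 0.129 for 18), all above 0.1, so a fit with the number as a block is given beside the fit without it. Mutant 17 correlated more with another control (0.256), and with means over shared numbers and a prior count of 2 the value for 18 was 0.0884. The labels' own replicate numbers do not pair these groups. The count over pairs was added after the values were seen.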

Additional observations from a re-analysis of the deposited data

Results flagged for a closer look

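Only the E11.5 groups were examined, since the sorted groups have too few libraries. In 6 of these 24 groups, 1 for each gene and genotype, a single library lay far from the others. Chance flags about 1 in 20 groups, but these share libraries, and 4 of the 6 are from control 7, so the numbers are not comparable. In control 7, Isl1 was at 145 CPM where the next control had 65.0 CPM, Trp63 at 10.9 CPM where the next had 4.04 CPM, Wnt5a at 159 CPM where the next had 89.5 CPM, and Notum at 15.0 CPM where the next had 5.17 CPM. In control 16, the shallowest library, Ehf was at 2.49 CPM where the next control had 0.373 CPM. In mutant 17, Foxa1 was at 10.9 CPM where the next mutant had 6.10 CPM. Causes were not tested.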

How the results depend on the processing

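Counts past an adjusted p of 0.05 depended on the tool and the filter, and the cause was not tested. With DESeq2, with no filter and with all 18 libraries in 1 fit, epithelium against muscle gave 1827, 1620 and 3576 genes (490 reported) and 5, 8 and 8 factors (1 reported), or 2 factors with a date term. Against chondroblasts they gave 1554, 1463 and 2961 genes (375) and 6, 7 and 7 factors (2), and against the mean of both 2035, 1928 and 3898 genes (704) and 7, 9 and 9 factors (3). Against E11.5 trachea DESeq2 gave 4080 genes (2495). For the Wnt5a mutants (2 genes) DESeq2 gave 40, no TMM factors 5, no filter 9, all libraries 0 and the marker covariate 0. At the study's thresholds (546 genes, 2 factors) no filter gave 1451 genes, all libraries 299 genes and 1 factor, and the covariate 299 genes and 0 factors. For the Notum mutants (0 genes) DESeq2 gave 526, no filter 42 and all libraries 9, with 2 factors by DESeq2 and 1 with no filter.

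Leaving out 1 library at a time gave 162 to 1197 genes and 0 to 3 factors against muscle, 20 to 1038 and 0 to 4 against chondroblasts, 265 to 1450 and 0 to 4 against their mean, and 1442 to 7075 genes against E11.5 trachea. For Wnt5a it gave 0 to 3 genes past the adjustment, and 320 to 935 genes and 1 to 4 factors at the study's thresholds. For Notum it gave 0 to 2540 genes and 0 to 3 factors past the adjustment, and 670 to 4209 genes and 2 to 4 factors at the study's thresholds. Where 1 library of a group remains, it is assumed to vary like the other groups.

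Some directions turned. Leaving out 1 library, Trp63 against E11.5 trachea ran from -2.87 (without the earlier epithelium) to 4.04 (without the later). In the Wnt5a comparison Nkx2-1 ran from -0.54 to 0.60, Foxa1 from -0.0114 to 0.45 and Foxa2 from -0.0547 to 0.54, the latter pair lowest without mutant 17. Nkx2-1 was 0.0156 without TMM factors, and with the covariate Foxa1 was -0.0619 and Foxa2 -0.17. Nkx2-1 in the Notum comparison ran from -3.00 (without the earlier control) to 0.56 (without the later). Of 572 alternatives for the log2 fold changes of the factors, 476 kept direction and side of the threshold.

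With the column number as a replicate block, 1 gene passed the adjustment and 413 genes and 3 factors met the study's thresholds in the Wnt5a comparison. A block by the labels' own replicate number was not run, since the columns carry none. The date term compares the sorted control populations within each date. No paired analysis was possible for the Notum comparison because its mutants all carry 1 date and their numbers match no control.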
